A study of Mus musculus with 20 samples.

Results

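The genes described here are 41 interferon-stimulated genes, the transcripts that a cell induces when it senses an interferon. They were chosen by symbol, and all 41 were among the 17101 genes of the table. Of these, 31 were genes led by type I interferon and 10 were interferon-inducible GTPases of the Gbp and Irg families. They were measured by RNA-Seq in donor T cells recovered from the spleens of mice on day 10 after allogeneic bone marrow transplantation. Donors were C57BL/6 mice 6 to 12 weeks old and recipients were irradiated B6D2F1 mice 8 to 12 weeks old, so every group had met the same foreign major histocompatibility antigens. KO donors carried a Dnmt3a 2loxP allele and a Cre transgene driven by the Cd4 promoter, so that the gene for the DNA methyltransferase was deleted in T cells, and WT donors were littermates. Flow-sorted CD4+ and CD8+ cells gave 4 libraries per genotype, and double-positive (DP) cells, which carry CD4 and CD8 together, gave 4 from KO donors. KO animals carry the numbers 1 to 4 and WT animals 2, 3, 5 and 6 in the labels. DP cells of WT donors were not analysed here.

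Between 37547651 and 46966318 reads fell on genes per library, and KO DP replicate 3 stood apart with 11783 genes detected, against up to 14677 elsewhere. Dnmt3a itself was at 1385 to 1658 in KO CD4+ and 4690.0 to 5171 in WT CD4+ libraries, at 1287 to 2007 in KO CD8+ and 3542 to 3812 in WT CD8+ libraries, and at 650.4 to 1571 in KO DP libraries. Values are normalised read counts throughout, in the order of the animal numbers, and a gene is called changed where its adjusted p (limma, Benjamini-Hochberg) is under 0.05. Fold changes are on the scale log2(normalised count + 1). Cd4 was at 44804 to 74386 in KO CD4+, 64652 to 72567 in WT CD4+ and 8758 to 15351 in KO DP libraries. It was at 302 to 458 in KO CD8+ libraries, all above the 9.88 to 79.6 of WT CD8+ libraries. Cd8a was at 41594 to 68516 in KO DP, 45783 to 68740 in KO CD8+ and 62769 to 68733 in WT CD8+ libraries. Cd8a was at 3771 in KO CD4+ replicate 1, against 78.3 to 227 in the other KO CD4+ and 99.1 to 586 in WT CD4+ libraries. In bulk samples, fewer cells of a type and less RNA per cell cannot be told apart.

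Type I interferons bind the receptor IFNAR1 and IFNAR2 and act through the kinases JAK1 and TYK2, which lead to a complex with STAT2 and IRF9 that binds interferon-stimulated response elements (ISRE). Interferon-gamma, made by activated T cells themselves, binds IFNGR1 and IFNGR2, acts through JAK1 and JAK2, and leads to binding at gamma-activated sequences (GAS) and to induction of IRF1. The Gbp and Irg GTPases coat intracellular vacuoles of microbes and are strongly induced by interferon-gamma, and many genes answer both kinds of interferon.

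The letters of both elements were looked for in the RefSeq promoters (GRCm38.p6) of the members, each spanning 250 bases before to 50 after a transcript start. RefSeq promoters were at hand for 30 of the 41 genes, 37 promoters in all. ISRE-like letters, taken as GAAA and GAAA with any 2 bases between them on either strand, stood in 19 of the 37 promoters (51.4%), against 3.44% of all 32851 promoters. They stood in 12 of 29 promoters of type I-led genes (41.4%) and in 7 of 8 of the GTPases (87.5%). The GAS-like letters TTCNNNGAA, the same on both strands, stood in 10 of the 37 (27.0%), against 8.30% of all promoters. The windows below are from genes named in the results that follow. They are read along the gene's own strand and end before the start, with the matching letters in capitals (2 overlapping matches run together in Oas1a and in Irgm1). The first 5 are from genes that were lower in KO cells:
Rsad2, chr12:26456543-26456592 (- strand): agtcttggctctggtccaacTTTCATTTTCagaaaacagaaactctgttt
Stat2, chr10:128270256-128270305 (+ strand): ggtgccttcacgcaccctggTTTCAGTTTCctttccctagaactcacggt
Oas1a, chr5:120907526-120907565 (- strand): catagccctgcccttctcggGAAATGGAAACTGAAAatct
Gbp5, chr3:142496862-142496910 (+ strand): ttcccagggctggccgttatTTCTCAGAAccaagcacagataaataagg
Irf1, chr11:53769904-53769952 (+ strand): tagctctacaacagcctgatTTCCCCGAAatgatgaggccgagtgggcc
The other 5 are from genes that were called in neither KO versus WT comparison:
Ifit3, chr19:34583353-34583436 (+ strand): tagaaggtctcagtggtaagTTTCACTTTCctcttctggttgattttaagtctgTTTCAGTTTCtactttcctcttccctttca
Gbp2, chr3:142620584-142620633 (+ strand): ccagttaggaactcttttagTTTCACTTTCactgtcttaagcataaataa
Gbp7, chr3:142530263-142530312 (+ strand): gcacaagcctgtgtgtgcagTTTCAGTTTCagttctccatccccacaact
Igtp, chr11:58199502-58199551 (+ strand): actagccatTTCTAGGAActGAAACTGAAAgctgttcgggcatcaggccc
Irgm1, chr11:48871421-48871470 (- strand): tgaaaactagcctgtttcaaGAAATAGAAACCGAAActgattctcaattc
The capitals mark ISRE-like letters in all but Gbp5 and Irf1, where they mark GAS-like letters, and the window of Igtp holds GAS-like letters as well, also in capitals and upstream of its ISRE-like letters. The GAS-like letters shown for Gbp5 lie 52 bases before the start. Outside the windows, the promoter of Gbp5 also held ISRE-like and further GAS-like letters, and those of Gbp7 and Oas1a held GAS-like letters. Members called in a KO versus WT comparison carried ISRE-like letters in 6 of 9 genes with a promoter and uncalled members in 12 of 21, and for GAS-like letters the numbers were 3 of 9 and 7 of 21. No promoter was at hand for the called genes Mx1, Gbp4, Gbp6, Iigp1 and Parp9, so these numbers leave them out. A match of letters is a description and not a binding site.

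The first question was how the loss of Dnmt3a bore on these genes within each subset. In CD4+ cells 11 of 41 members passed the test and all 11 were lower in KO cells, where 18.4% of the 12391 genes tested were called (9.77% were called lower and 8.59% higher). In CD8+ cells 10 members passed, 8 lower and 2 higher in KO cells, where 25.2% of 12383 genes were called (12.5% lower and 12.6% higher). The share of members that were lower was 26.8% in CD4+ and 19.5% in CD8+ cells. KO libraries all lay below WT libraries for 10 members in each subset, a pattern that 13.3% of all genes had in the CD4+ and 15.5% in the CD8+ comparison. The members' median log2 fold change was -0.21 in CD4+ and -0.07 in CD8+ cells, against -0.05 and -0.04 for all genes tested. Type I-led genes had a median of -0.20 in CD4+ and -0.11 in CD8+ cells, and the GTPases -0.29 and -0.06. Mx1, Irf1, Stat2, Gbp4, Gbp5, Gbp6 and Iigp1 were lower in both comparisons, which have no library in common but take the CD4+ and CD8+ cells of the same animals, so that they are not separate evidence. Rsad2, Samd9l, Trim30a and Ifih1 were called in CD4+ cells only, Oas1a, Parp9 and Dtx3l in CD8+ cells only, and 27 members in neither. Leaving out 1 WT CD4+ library left 7 members (without replicate 2 or 3), 6 (replicate 5) or 5 (replicate 6) in CD4+ cells. The share of all genes called fell as well, from 18.4% to 8.95%, 7.89%, 8.28% and 5.08% without WT replicate 2, 3, 5 and 6. In CD8+ cells 15 members passed without KO CD8 replicate 3, 7 higher and 8 lower, where 33.0% of the genes tested were called. Without a trend in the variance 5 members were left in CD4+ cells (Mx1, Stat2, Gbp4, Gbp6 and Iigp1), where 11.3% of all genes were called. In CD8+ cells 8 members were left under that setting, where 20.6% of all genes were called. The edgeR fit called neither Samd9l nor Irf1 in CD4+ cells nor Oas1a in CD8+ cells. Scaling every library to the same 75th percentile shifted the median over all tested genes to -0.16 (CD4+) and -0.15 (CD8+). Under that scaling 14 members were lower and 0 higher in CD4+ cells, and 10 lower and 0 higher in CD8+ cells. It also turned the calls over all genes from 1064 higher and 1210 lower to 475 and 2149 in CD4+ cells, and from 1566 and 1552 to 689 and 2252 in CD8+ cells. Marker lists that moved with the genotype are given next.

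Of 8 genes of dissociation and heat stress, 6 were lower in KO cells of each subset. Over all genes, 9.77% were called lower and 8.59% higher in CD4+ cells, and 12.5% lower and 12.6% higher in CD8+ cells. The list summed to 9405 to 15046 in KO CD4+ and 24121 to 48820.0 in WT CD4+ libraries, and to 8587 to 13840.5 in KO CD8+ and 20497 to 35481 in WT CD8+ libraries. The gap was far wider for Hspa1a, a gene of this list, at 13.2 to 82.1 in KO CD4+ and 2221 to 10881 in WT CD4+ libraries. In CD8+ cells Hspa1a was at 4.12 to 57.8 in KO and 1435 to 6483 in WT libraries. Of 3 nuclear-retained RNAs 2 were lower in each subset, and they summed to 8651 to 14074 in KO CD4+, 29082 to 62119 in WT CD4+, 9854 to 28272 in KO CD8+ and 30924 to 43470.2 in WT CD8+ libraries. Of 6 dendritic cell markers, 5 were lower in KO CD4+ and 4 in KO CD8+ cells. Flt3, a receptor that such cells need, was at 0 to 5.73 in KO CD4+, 29.1 to 64.2 in WT CD4+, 0 to 38.1 in KO CD8+ and 49.4 to 94.5 in WT CD8+ libraries. Clec9a, a receptor of cross-presenting dendritic cells, was at 0 to 22.9, 41.8 to 147, 0 to 11.2 and 71.0 to 140.0 in the same order. The whole dendritic list, which includes Itgax, a gene that activated CD8+ cells also express, summed to 836 to 2278 in KO CD4+ and 1405 to 1731 in WT CD4+ libraries, and to 4764 to 11832 in KO CD8+ and 6850.2 to 10205 in WT CD8+ libraries. Of 8 macrophage and monocyte markers tested 3 were lower in KO CD4+ and 0 in KO CD8+ cells, and all 9 in the table summed to 1149.8 to 1595 in KO CD4+, 1669.5 to 2165 in WT CD4+, 2394 to 6037 in KO CD8+ and 2683 to 4264 in WT CD8+ libraries. B cell markers pointed the other way. Of 3 tested, 2 were higher in KO CD4+ cells (Cd79a and Cd79b, the chains that signal for the B cell receptor) and 1 in KO CD8+ cells (Cd79b), and all 7 in the table summed to 1650.1 to 2162 in KO CD4+, 1250.0 to 1681 in WT CD4+, 1717 to 2751 in KO CD8+ and 412 to 536 in WT CD8+ libraries. Of 2 NK cell markers tested, Klrb1c was higher in KO cells of both subsets and Eomes, which CD8+ T cells also express, was lower in KO CD8+ cells, and the 3 in the table summed to 499 to 1742 in KO CD4+, 635 to 1485 in WT CD4+, 1956 to 4669 in KO CD8+ and 3836 to 5006 in WT CD8+ libraries. The neutrophil and erythroid markers missed the threshold in both subsets, and the 7 neutrophil genes in the table summed to 5.89 to 3280.1 in KO CD4+, 1739 to 2778 in WT CD4+, 6.18 to 2046 in KO CD8+ and 1459 to 3398 in WT CD8+ libraries. The part of these genes in the results below was not tested.

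**Figure D1:**
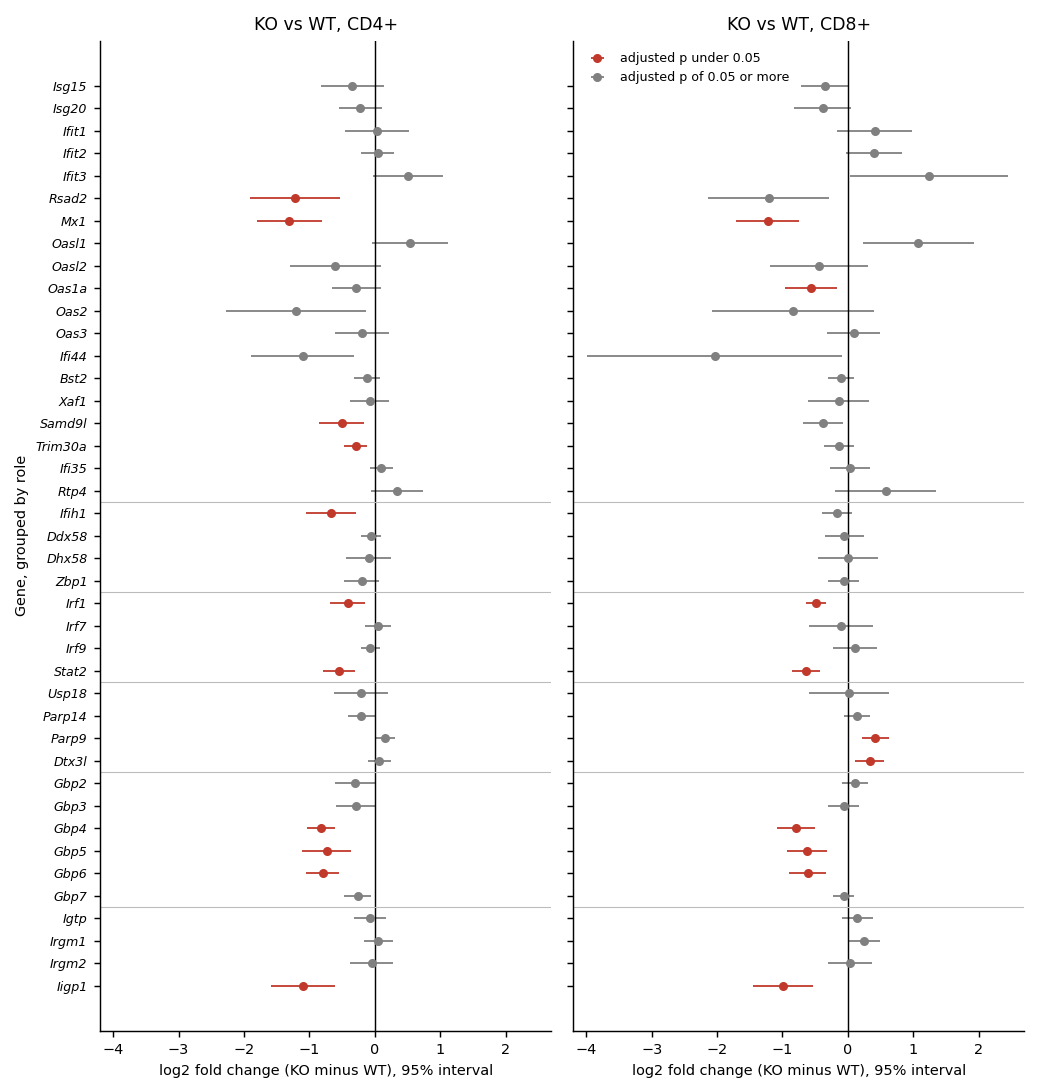
Log2 fold change (KO minus WT) of each of the 41 genes in CD4+ cells (left) and CD8+ cells (right), with bars for the 95% interval (n = 4 libraries per group) and red for an adjusted p under 0.05. The 11 called genes on the left all lie below 0, and on the right 8 lie below and 2, Parp9 and Dtx3l, above.

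Among the 19 antiviral effectors, 4 were lower in KO cells of the CD4+ (21.1%, against 9.77% of all genes) and 2 of the CD8+ subset (10.5%, against 12.5%). Mx1, a dynamin-like GTPase that traps viral nucleocapsids, was at 423, 792, 371 and 373 in KO CD4+, 1042, 1092, 1238 and 1247 in WT CD4+, 1207, 772, 533 and 646 in KO CD8+, 1712, 1835, 1777 and 1732 in WT CD8+ and 546, 443, 432 and 701 in KO DP libraries. All KO values were under all WT values of the same subset, and the log2 fold change was -1.31, SE 0.22, adjusted p = 0.00659 in CD4+ and -1.23, SE 0.21, adjusted p = 0.00483 in CD8+ cells. Rsad2, which encodes viperin, a maker of a chain-terminating nucleotide, was at 316, 638, 389 and 387 in KO CD4+, 682, 811, 1862 and 873 in WT CD4+, 244, 143, 214 and 188 in KO CD8+, 372, 302, 1186 and 307 in WT CD8+ and 114, 81.4, 266 and 124 in KO DP libraries. WT replicate 5 was high in both subsets, yet the groups did not overlap in either. Rsad2 differed by -1.22 in CD4+ cells (SE 0.31, adjusted p = 0.0251) and by -1.21 in CD8+ cells (SE 0.41), where it missed the threshold at an adjusted p of 0.0577 but passed with edgeR (0.0423), DESeq2 (0.00425) and a common 75th percentile (0.0456). In CD4+ cells the call was lost without KO replicate 1 or WT replicate 6 (adjusted p up to 0.0654).

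Samd9l, a restriction factor that shuts off translation, was at 3709, 3604, 3179 and 2326 in KO CD4+ and 3655, 4899, 4344 and 5159 in WT CD4+ libraries. KO replicate 1 lay above the lowest WT library, and the log2 fold change was -0.51, SE 0.16, adjusted p = 0.0472. In CD8+ cells the same gene was at 5385, 5431, 3614 and 3962 in KO and 6339, 5965, 5456 and 5880.4 in WT libraries (-0.38, adjusted p = 0.0641), without overlap. Trim30a, a TRIM-family ubiquitin ligase that restrains inflammatory signaling, was at 5053, 5693, 5558 and 4776 in KO CD4+ and 6951, 6414, 6266 and 6127 in WT CD4+ libraries (-0.29, SE 0.08, adjusted p = 0.0317). Oas1a, a maker of the oligoadenylates that activate RNase L, was called in CD8+ cells, at 1634, 1436, 1276 and 843 in KO and 1928, 1820.3, 1922 and 1794 in WT libraries (-0.56, SE 0.18, adjusted p = 0.0441). Its reads can be shared with near-identical Oas1 copies. Each of these 3 calls rested on single libraries: the adjusted p reached 0.134 for Samd9l (lost without KO replicate 3 or 4 or WT replicate 3, 5 or 6), 0.0898 for Trim30a (lost without KO replicate 1 or 4 or any WT library) and 0.105 for Oas1a (lost without KO replicate 3 or any WT library).

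The other effectors were called in neither subset, and several of them had higher means in KO cells. Ifit3, of the family that binds the ends of foreign RNA, was at 1707, 2199, 939.6 and 1171 in KO CD4+, 1179, 1075, 1036 and 767 in WT CD4+, 2971, 1334, 334 and 748 in KO CD8+, 435, 446, 482 and 340.2 in WT CD8+ and 1575, 687, 307 and 371 in KO DP libraries. The KO CD8+ libraries other than replicate 3 lay above all WT CD8+ libraries and that replicate lay below them, with a log2 fold change of 1.24 (95% interval 0.03 to 2.45, adjusted p = 0.119), and in CD4+ cells it was 0.51 (-0.03 to 1.05, adjusted p = 0.159). In CD8+ cells Ifit3 did pass without KO CD8 replicate 3 (adjusted p = 0.0104), with edgeR (0.0482) and with DESeq2 (0.0284), and in CD4+ cells without KO CD4 replicate 3 (0.0422). Oasl1, an OAS-like inhibitor of Irf7 translation, was at 207, 108, 90.8 and 159 in KO CD8+ and 48.9, 122, 50.3 and 52.8 in WT CD8+ libraries (1.07, adjusted p = 0.0646), and the groups overlapped. It passed without KO CD8 replicate 3 (adjusted p = 0.0377) or WT CD8 replicate 3 (0.0329), with quantile normalization (0.0247) and with DESeq2 (0.0391). Rtp4, a transmembrane protein that restricts flaviviruses, was at 1829.9, 1227, 498 and 724 in KO CD8+ and 705, 662, 645 and 538 in WT CD8+ libraries (0.58, adjusted p = 0.238, and 0.0362 without KO CD8 replicate 3). Ifi44, a gene of uncertain function, pointed the other way, at 53.5, 136, 74.5 and 58.2 in KO CD4+ and 217, 166, 190.4 and 100.2 in WT CD4+ libraries (-1.10, adjusted p = 0.0547), and passed without KO CD4 replicate 2 (0.0161), with DESeq2 (0.0277) and with a common 75th percentile (0.0365). The remaining effectors, Isg15, Isg20, Ifit1, Ifit2, Oasl2, Oas2, Oas3, Bst2, Xaf1 and Ifi35, missed the threshold in both subsets. A miss of the threshold does not show that a gene was at the same level in both genotypes.

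Of the 4 nucleic acid sensors, 1 was called in CD4+ cells (25%, against 18.4% of all genes) and 0 in CD8+ cells (against 25.2%). Ifih1, which encodes MDA5, the sensor of long double-stranded RNA, was at 3120.3, 4187, 6322 and 4493 in KO CD4+ and 7116, 6362, 7475 and 6934 in WT CD4+ libraries. KO replicate 3 came close to the lowest WT library without overlap, and the log2 fold change was -0.67, SE 0.17, adjusted p = 0.0274. The call was lost when any 1 of the WT libraries was left out, at an adjusted p of up to 0.0774. In CD8+ cells Ifih1 was at 2061, 1977, 2657 and 2174 in KO and 2452, 2548, 2627 and 2281 in WT libraries (-0.17, adjusted p = 0.247). Ddx58, which encodes RIG-I, Dhx58, which encodes LGP2, and Zbp1, the sensor of Z-form nucleic acid, were called in neither subset.

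Of the 4 transcription factors, Stat2 and Irf1 were lower in both subsets, while Irf7 and Irf9 were called in neither. The share lower was 50% in each subset, against 9.77% (CD4+) and 12.5% (CD8+) of all genes. Stat2, the partner of IRF9 in the complex that type I interferon activates, was at 2052, 2649, 2830.3 and 2890.4 in KO CD4+, 3832, 3494, 3710.1 and 4051 in WT CD4+, 2793, 2129.8, 2277 and 2119.6 in KO CD8+, 3804, 3504, 3595 and 3521 in WT CD8+ and 2370.5, 1874, 1921 and 2395 in KO DP libraries. The groups did not overlap in either subset, the log2 fold change being -0.54, SE 0.11, adjusted p = 0.0124 in CD4+ and -0.64, SE 0.10, adjusted p = 0.00293 in CD8+ cells, and in CD4+ cells the adjusted p rose to 0.0501 without WT replicate 6. Irf1, the factor that relays the response to interferon-gamma, was at 8268, 9331, 12884 and 11102 in KO CD4+, 13397, 13337, 13444 and 14552 in WT CD4+, 10736, 11036, 11742 and 10646 in KO CD8+, 17204, 14786, 15186 and 14999 in WT CD8+ and 9840.1, 10421, 12006 and 9614 in KO DP libraries. Its log2 fold change was -0.42, SE 0.12, adjusted p = 0.0421 in CD4+ and -0.49, SE 0.07, adjusted p = 0.00238 in CD8+ cells, again without overlap. In CD4+ cells the call on Irf1 was lost, at an adjusted p of up to 0.117, without KO replicate 1 or 2 or any 1 WT library, and in CD8+ cells it held without each library.

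The 4 ubiquitin and ADP-ribose regulators held the members that were higher in KO cells, 2 in CD8+ (50%, against 12.6% of all genes) and 0 in CD4+ cells. Parp9 and Dtx3l, whose proteins form a complex that modifies histones and boosts interferon signaling, are encoded on chromosome 16 by genes whose ends overlap. Parp9 was at 7266, 6189.6, 5476 and 5849 in KO CD8+ and 4976, 4619, 4579 and 4285 in WT CD8+ libraries, without overlap (0.42, SE 0.09, adjusted p = 0.0123). Dtx3l was at 8980.4, 8159.8, 6539 and 7975 in KO CD8+ and 6756, 6158, 6296 and 5765 in WT CD8+ libraries, where KO replicate 3 overlapped the WT range (0.33, SE 0.10, adjusted p = 0.0353). With a common 75th percentile neither passed (adjusted p = 0.056 for Parp9 and 0.154 for Dtx3l), and the call on Dtx3l held without KO replicate 3 but not without any other single library (adjusted p up to 0.105). In CD4+ cells Parp9 was at 6851, 7258, 6561 and 6788 in KO and 6567, 6025, 6365 and 5664 in WT libraries (0.16, adjusted p = 0.136). Usp18, the protease that removes ISG15 and blocks IFNAR2, and Parp14, an ADP-ribosyltransferase, were called in neither subset.

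Among the GTPases, 3 of 6 guanylate-binding proteins and 1 of 4 immunity-related GTPases were lower in KO cells of each subset, and these were the same 4 genes. The shares lower were 50% and 25% in each subset, against 9.77% (CD4+) and 12.5% (CD8+) of all genes. Gbp4 was at 5943, 7476, 7451 and 6310.2 in KO CD4+, 12285, 10782, 11775 and 13183 in WT CD4+, 8803, 5985, 6519.8 and 5813 in KO CD8+, 13017, 10608, 11300.3 and 11514 in WT CD8+ and 5796, 4448, 5481 and 5292 in KO DP libraries. The log2 fold change was -0.82, SE 0.10, adjusted p = 0.00167 in CD4+ and -0.79, SE 0.13, adjusted p = 0.00384 in CD8+ cells. Gbp6 was at 6984, 8483, 10261 and 9188 in KO CD4+, 16444, 13609, 15679 and 14527 in WT CD4+, 7274, 6134, 5911 and 6827 in KO CD8+, 12834, 8967, 9995 and 8579 in WT CD8+ and 5358, 3922, 5258 and 6337 in KO DP libraries, the log2 fold change being -0.80, SE 0.12, adjusted p = 0.00378 in CD4+ and -0.61, SE 0.13, adjusted p = 0.00925 in CD8+ cells, and its reads can be shared with the near-identical Gbp10. Gbp5, which promotes assembly of the NLRP3 inflammasome, was at 1617, 1911, 3046 and 2317 in KO CD4+, 4043, 3439.7, 3698 and 3243 in WT CD4+, 1432, 1255, 1940.4 and 1708 in KO CD8+, 2797, 2364, 2248 and 2291 in WT CD8+ and 1348, 1151, 1449.7 and 1662 in KO DP libraries. It differed by -0.73, SE 0.17, adjusted p = 0.0182 in CD4+ and -0.63, SE 0.14, adjusted p = 0.0116 in CD8+ cells, and in CD4+ cells the call was lost without WT replicate 2 or 5 (adjusted p up to 0.054).

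Iigp1, which encodes Irga6, a GTPase that strips the vacuole of Toxoplasma, was at 1052, 2010.0, 2247 and 1665 in KO CD4+, 4599, 3074, 3746 and 3140.1 in WT CD4+, 339, 266, 276 and 419 in KO CD8+, 845, 633, 637 and 483 in WT CD8+ and 193, 174, 331 and 198 in KO DP libraries. Its log2 fold change was -1.10, SE 0.22, adjusted p = 0.0113 in CD4+ and -0.99, SE 0.21, adjusted p = 0.00916 in CD8+ cells. For these 4 genes all KO values were under all WT values in both subsets. The calls on Mx1, Gbp4, Gbp6 and Iigp1 held in both subsets without each single library and under the 9 other settings that pair no samples.

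The other GTPases were called in neither subset. Gbp2, Gbp3 and Gbp7 were lower on average in KO CD4+ cells but overlapped the WT range, with Gbp7 at 10065, 12666, 12019 and 10347 in KO and 14357, 12824, 14109.9 and 12639 in WT CD4+ libraries (-0.26, adjusted p = 0.0682). Gbp7 passed without KO CD4 replicate 2 (adjusted p = 0.0286), with a common 75th percentile (0.0173) and under quantile normalization (0.0188). Igtp, which encodes Irgm3, a regulator that keeps Irg proteins off the cell's own membranes, was at 11961, 13936, 16407 and 13467 in KO CD4+, 16843, 12958, 15203 and 13671 in WT CD4+, 9365, 9764, 8526 and 9153 in KO CD8+, 10447, 7420.1, 7958 and 7746 in WT CD8+ and 8769.7, 8399, 9556 and 8485 in KO DP libraries. Irgm1, a regulator of the same kind, was at 5183, 5893, 5738 and 6004 in KO CD4+, 6627, 5182, 5460.2 and 4869.6 in WT CD4+, 4519, 4657, 3629 and 4192 in KO CD8+ and 4124, 3573, 3288 and 3273 in WT CD8+ libraries. The genotypes overlapped in both subsets for Igtp, Irgm1 and Irgm2. Igtp and Irgm2 lie side by side on chromosome 11.

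**Figure D2:**
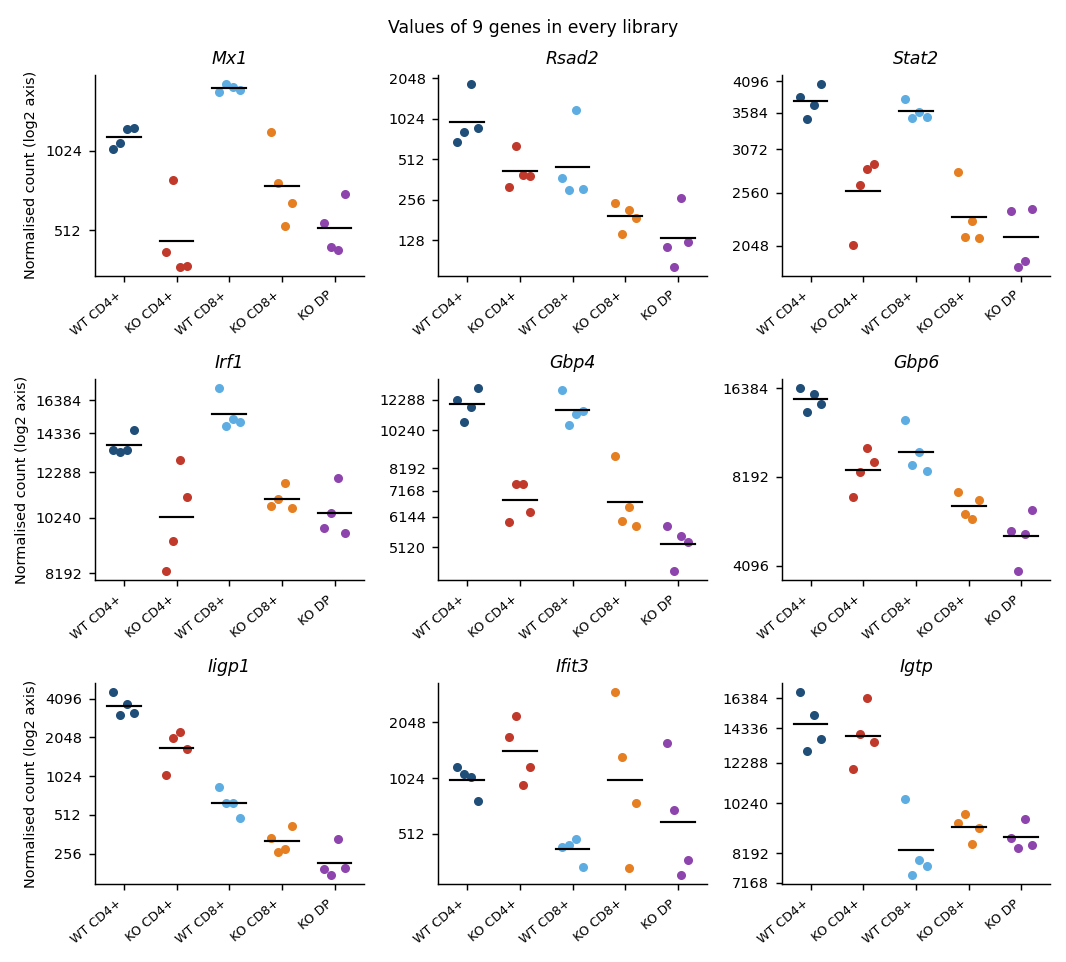
Normalised read counts (log2 axes) of 9 genes in each of the 20 libraries, with 1 point per library and a bar at the geometric mean of each group. Mx1, Rsad2, Stat2, Irf1, Gbp4, Gbp6 and Iigp1 show no overlap between KO and WT libraries of a subset, whereas Ifit3 and Igtp do overlap.

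The same family was followed further with 12 interferon-inducible GTPases that are not members, of which 10 were expressed enough to test. In CD4+ cells 7 of these 10 were lower and 0 higher in KO cells (70.0% lower, against 9.77% of all genes), and in CD8+ cells 4 were lower (against 12.5% of all genes) and 1, Ifi47, higher. Grouped by chromosome after their values had been seen, and so without a test, the 20 genes lay as follows. On chromosome 5, Gbp4, Gbp6, Gbp8, Gbp9, Gbp10 and Gbp11 were lower in 6 of 6 cases in CD4+ cells (log2 fold changes from -1.38 to -0.65) and in 5 of 6 in CD8+ cells (-1.38 to -0.44). On chromosome 18, Iigp1, Gm4841 and Gm4951 were lower in 3 of 3 cases in CD4+ and 2 of 3 in CD8+ cells. On chromosome 3, which holds Gbp2, Gbp2b, Gbp3, Gbp5 and Gbp7, 2 of 5 were lower in CD4+ and 1 of 5 in CD8+ cells. On chromosome 11, Igtp, Irgm1, Irgm2, Ifi47, Tgtp1 and Tgtp2 were lower in 0 of 6 cases, with log2 fold changes from -0.32 to 0.08 (CD4+) and from 0.04 to 0.32 (CD8+), where Ifi47 was higher. Tgtp1 and Tgtp2 are near-identical copies, so their separate values are uncertain.

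Gbp8 was at 1199, 1306, 1817 and 1221 in KO CD4+ and 3656, 3132, 3009.8 and 4596 in WT CD4+ libraries, and at 2183, 1036, 1262 and 1137 in KO CD8+ and 3591, 3579, 3137 and 3675 in WT CD8+ libraries. Its log2 fold change was -1.38, SE 0.16, adjusted p = 0.00167 in CD4+ and -1.38, SE 0.20, adjusted p = 0.00284 in CD8+ cells. The other genes of this list called in CD4+ cells included Gbp11 (-0.88, adjusted p = 0.000594), Gbp10 (-0.88, adjusted p = 0.00316), Gm4841 (-1.38, adjusted p = 0.00532) and Gbp2b (-1.49, adjusted p = 0.00895). Gm4951 also passed (-0.78, adjusted p = 0.0409), but lost its call without any single library except KO CD4 replicate 2 (adjusted p up to 0.114), with no minimum mean, with quantile normalization and in the fit of all 20 libraries. In CD8+ cells the others were Gbp10 (-0.74, adjusted p = 0.00655), Gbp11 (-0.69, adjusted p = 0.00898), Ifi47 (0.32, adjusted p = 0.0238) and Gm4841, at 4.28, 0, 13.5 and 8.52 in KO and 68.0, 68.1, 40.4 and 20.4 in WT CD8+ libraries. The low counts of Gm4841 make its fitted value depend on the pseudocount, from -3.13 with 1 to -1.81 with 10. Leaving out WT replicate 2, 3 or 5 ended that call (adjusted p up to 0.0775), and leaving out WT replicate 3, 5 or 6 ended that on Ifi47 (up to 0.0781), which also missed the threshold with a common 75th percentile.

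**Figure D3:**
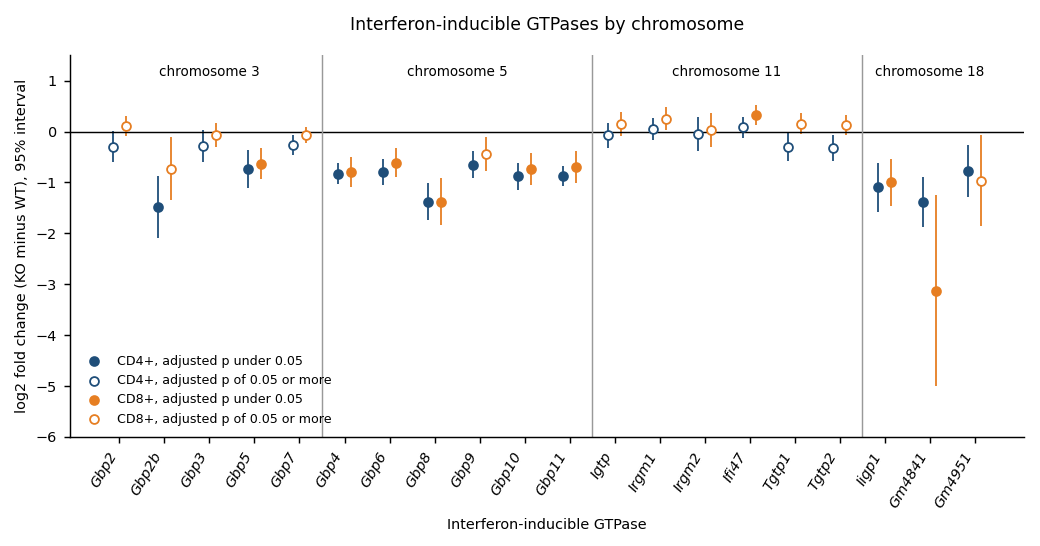
Log2 fold change (KO minus WT) of 20 interferon-inducible GTPases, ordered by chromosome, in CD4+ (blue) and CD8+ cells (orange), with 95% intervals and filled points for an adjusted p under 0.05. The 6 genes on chromosome 5 all lie below 0 in both subsets, and the 6 on chromosome 11 lie from -0.32 to 0.32.

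Transcripts of interferon-gamma, of the receptors and of the signaling genes were read from the same T cell libraries. Interferon protein and interferon made by other cells were not measured in these libraries. Ifng, which encodes interferon-gamma, was at 1835, 4761, 3438 and 3554 in KO CD4+, 4647, 5763, 7774 and 7219 in WT CD4+, 2014, 2523, 5370.2 and 3927 in KO CD8+, 10544, 10611, 11937 and 11556 in WT CD8+ and 2502, 3239.8, 9172 and 5439 in KO DP libraries. It was lower in KO cells of both subsets, with overlap in CD4+ (-0.95, SE 0.26, adjusted p = 0.0322) and without in CD8+ cells (-1.79, SE 0.26, adjusted p = 0.00256). In CD4+ cells the call on Ifng was lost without WT replicate 3, 5 or 6 (adjusted p up to 0.0993). Of 20 interferon ligands listed, 3 were in the table and Ifng alone was expressed enough to test, and the others were not analysed here.

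Among 9 genes of receptors and kinases, of which 8 were tested, 2 were higher and 1 lower in KO CD4+ cells, while 4 were higher and 1 lower in KO CD8+ cells. That is 37.5% called in CD4+ and 62.5% in CD8+ cells, against 18.4% and 25.2% of all genes. Ifngr1, the ligand-binding chain of the interferon-gamma receptor, was at 44091, 39416, 24858 and 34519 in KO CD4+ and 20309, 19590.1, 16150.5 and 18679 in WT CD4+ libraries (0.91, SE 0.16, adjusted p = 0.00724). In CD8+ cells it was at 34306, 32144, 18336 and 31396 in KO and 18965, 17635, 15369 and 17728 in WT libraries (0.70, SE 0.18, adjusted p = 0.0216), and the call was lost without KO replicate 4 or WT replicate 3, 5 or 6 (adjusted p up to 0.0667). Jak1, the kinase that serves both receptors, was higher in KO cells (0.39, adjusted p = 0.0332 in CD4+ and 0.61, adjusted p = 0.0112 in CD8+ cells), and in CD4+ cells the call was lost without KO replicate 1 or any 1 WT library (adjusted p up to 0.0961) and with a common 75th percentile.

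Jak2, the kinase of the interferon-gamma receptor, was higher in KO CD8+ cells, at 8626, 7509, 6972 and 7619 against 5456, 5674, 5422 and 5439 (0.48, SE 0.07, adjusted p = 0.00307), whereas in CD4+ cells it missed the threshold (0.13, adjusted p = 0.253). Tyk2, the kinase of the type I receptor, was lower in KO cells of both subsets. It was at 5354, 4938, 7179 and 4673 in KO CD4+ and 7347, 8044, 8712 and 9244 in WT CD4+ libraries (-0.61, SE 0.13, adjusted p = 0.015; adjusted p = 0.0562 without WT replicate 6), and at 5423, 4626, 5237 and 4315 in KO CD8+ and 7292, 6659, 7228 and 7464 in WT CD8+ libraries (-0.55, SE 0.08, adjusted p = 0.00315).

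Ifnar1, Ifnar2 and Ifngr2 did not pass the limma test with all libraries in either subset. Ifnar1 differed by 0.05 in CD4+ (95% interval -0.12 to 0.21) and 0.17 in CD8+ cells (-0.01 to 0.36). Ifnar2 differed by 0.02 (-0.35 to 0.39) and 0.35 (0.08 to 0.61). In CD8+ cells Ifnar2 passed with edgeR (adjusted p = 0.0445), with DESeq2 (0.0224) and without KO CD8 replicate 2 (0.0174). Ifnar1 passed there without KO CD8 replicate 3 (adjusted p = 0.0326). Ifngr2, the signaling chain of the interferon-gamma receptor, was low in all groups, at 0 to 138 across the 20 libraries, and differed by -0.15 (-1.17 to 0.88) and -0.38 (-1.70 to 0.94). Socs1, the feedback inhibitor of the JAK kinases, was at 2056, 2081, 3211 and 3747 in KO CD4+ and 3369.6, 2599.5, 2577 and 2897 in WT CD4+ libraries (-0.51 to 0.34), and its interval in CD8+ cells was -0.30 to 0.29. Of 10 inhibitors 1 was called in each subset (10%, against 18.4% of all genes in CD4+ and 25.2% in CD8+ cells). This was Ptpn1, a phosphatase of JAK2 and TYK2, which was higher in KO cells (0.32, adjusted p = 0.0295 in CD4+ and 0.28, adjusted p = 0.0232 in CD8+ cells). It missed the threshold with a common 75th percentile in both subsets, without KO replicate 1 or 4 or any 1 WT library in CD4+ cells (adjusted p up to 0.0867) and without WT replicate 2, 3 or 6 in CD8+ cells (up to 0.0767).

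Of 15 sensors and adaptors that lead to interferon production, 3 were lower and 1 higher in KO CD4+ cells, and 6 were lower and 2 higher in KO CD8+ cells. The share called was 26.7% (CD4+) and 53.3% (CD8+), against 18.4% and 25.2% of all genes, with 9.77% and 12.5% of all genes called lower. Irf3, the factor that starts transcription of the interferon-beta gene, was lower (CD4+ value first, then CD8+: -0.43, adjusted p = 0.0175 and -0.58, adjusted p = 0.00347), as was its kinase Ikbke (in the same order, -0.64, adjusted p = 0.0132 and -0.60, adjusted p = 0.0344). Aim2, a sensor of cytosolic DNA, was lower in CD4+ (-1.11, adjusted p = 0.0156) and CD8+ cells (-1.23, adjusted p = 0.0395). Myd88, the adaptor of Toll-like and interleukin-1 receptors, was higher (in the same order, 0.58, adjusted p = 0.00316 and 0.46, adjusted p = 0.00189). Several of these calls rested on single libraries. In CD4+ cells Irf3 was lost without WT replicate 3 or 6 (adjusted p up to 0.062) and Aim2 without WT replicate 6 (0.0558). In CD8+ cells Ikbke was lost without each library but KO replicate 1 (up to 0.101) and Aim2 without KO replicate 1 or any 1 WT library (up to 0.0927). Of 52 other interferon-induced antiviral genes tested, 14 were lower and 5 higher in KO CD4+ cells, and 14 were lower and 7 higher in KO CD8+ cells. The share lower was 26.9% in each subset, against 9.77% (CD4+) and 12.5% (CD8+) of all genes, and the share higher was 9.62% and 13.5%, against 8.59% and 12.6%. Their median difference on the log2 scale was -0.12 (CD4+) and -0.04 (CD8+). Lgals9, which encodes galectin-9, was higher in both subsets (CD4+ value first, 0.83, adjusted p = 0.0035 and 1.14, adjusted p = 0.000638). The next by adjusted p were Slfn1 (0.64), Helz2 (-0.55), Herc6 (-0.75) and Trim30d (-0.99) in CD4+ cells, and Parp12 (-0.83), Parp11 (-0.90), Ly6e (0.52) and Mov10 (-0.66) in CD8+ cells.

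The genotype effect was then compared between CD4+ and CD8+ cells by an interaction term over 16 libraries. Of the 41 members, 0 passed with limma, where 0.0161% of 12446 genes were called, and 4 had an unadjusted p under 0.05 (Ifih1, Parp14, Parp9 and Gbp2, chosen after their values were seen). With edgeR and DESeq2 0 members passed, where 1 and 21 genes were called. A call in 1 subset and not in the other is therefore not shown to be a difference between the subsets. For Ifih1 the effect was higher in CD8+ than in CD4+ cells by 0.50 (95% interval 0.04 to 0.96, adjusted p = 0.730).

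The KO libraries had a wider spread than the WT libraries in these genes, which was not tested. For type I-led genes with a mean of at least 100 (n = 29), the SD of log2 values had a median over genes of 0.308 (KO CD4+), 0.344 (KO CD8+), 0.391 (KO DP), 0.105 (WT CD4+) and 0.0944 (WT CD8+). For all 10034 genes at that level the medians were 0.205, 0.221, 0.336, 0.109 and 0.0828 in the same order, so the KO libraries were more spread out over all genes as well. For the 10 GTPases they were 0.258, 0.189, 0.193, 0.149 and 0.151. Ifit3 gives the range within a group, since KO CD8+ replicate 1 was at 2971 and replicate 3 at 334. Averaged over the 31 type I-led genes and set against the WT mean of the subset, the KO CD8+ libraries lay at 0.29, 0.01, -0.49 and -0.39 on the log2 scale and the KO CD4+ libraries at -0.33, 0.05, -0.26 and -0.50. Averaged over the GTPases, the KO CD8+ libraries lay at -0.24, -0.32, -0.29 and -0.19 and the KO CD4+ libraries at -0.76, -0.36, -0.18 and -0.45, all of them below 0. These averages do not hold gene by gene. Of the 10 GTPases, 3, 3, 4 and 4 lay above the WT mean in the KO CD8+ libraries and 0, 2, 5 and 2 in the KO CD4+ libraries.

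**Figure D4:**
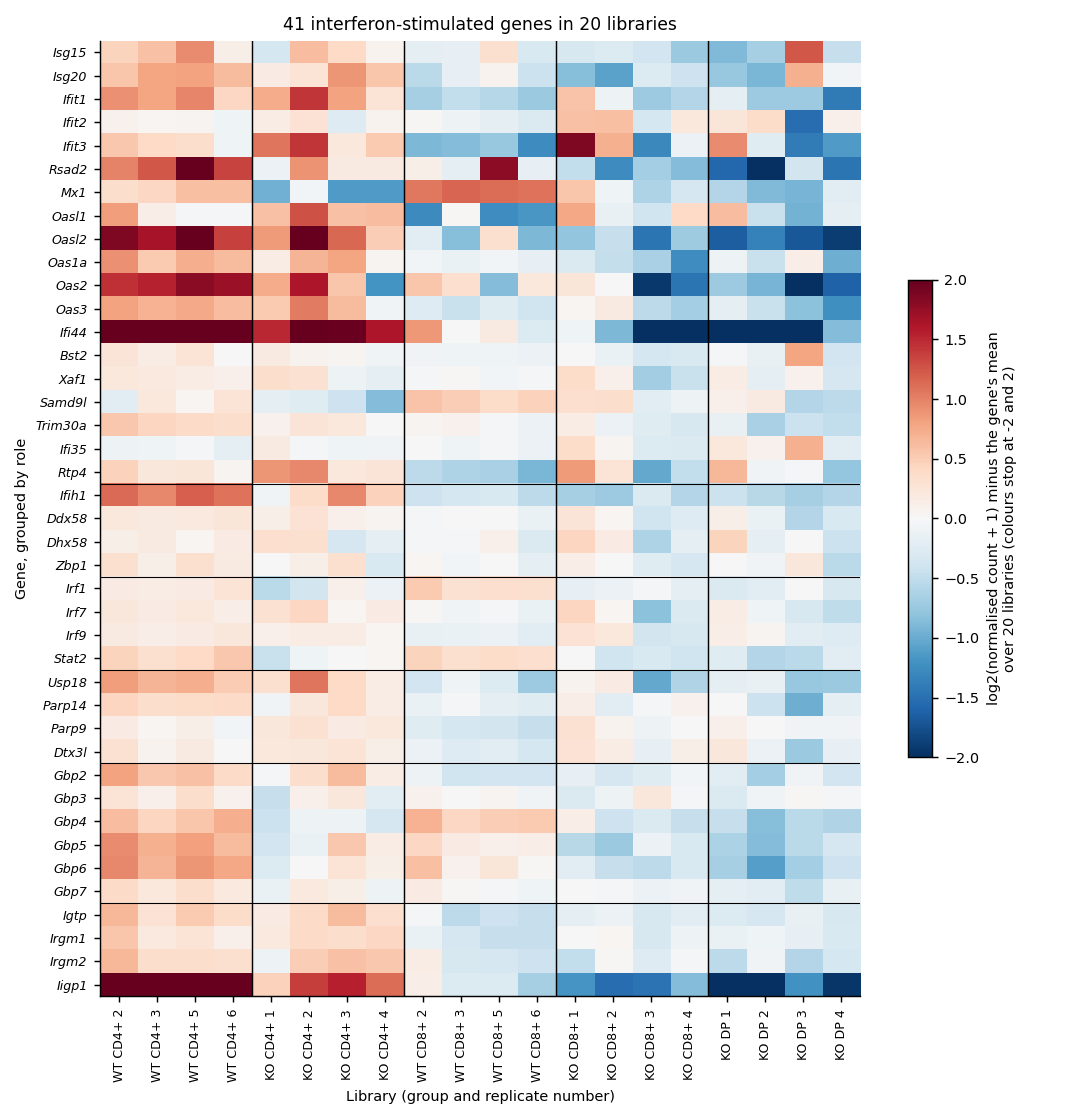
Each of the 41 genes (rows, grouped by role) in each of the 20 libraries (columns), coloured by log2(normalised count + 1) minus the mean of the gene over the 20 libraries, with colours ending at -2 and 2. The WT CD4+ columns are the most uniformly red, and within KO groups the columns of the effectors differ from animal to animal.

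The genes also differed between the subsets of 1 genotype. In WT cells 36 of 41 members passed, 33 higher in CD4+ and 3 (Mx1, Samd9l and Irf1) higher in CD8+ cells, where 44.5% of 12559 genes were called, 22.3% higher in CD4+ and 22.2% higher in CD8+ cells. The members' median was 0.57 toward CD4+ cells. With all 20 libraries in 1 fit, which pools the spread with that of the KO groups, 19 members passed, all higher in CD4+ cells, where 12.8% of all genes were called. Iigp1 was at 4599, 3074, 3746 and 3140.1 in WT CD4+ and 845, 633, 637 and 483 in WT CD8+ libraries (2.49, SE 0.15, adjusted p = 3.45e-08). Ifi44 was at 217, 166, 190.4 and 100.2 in CD4+ and at 34.0, 18.2, 20.7 and 14.8 in CD8+ libraries (2.89, SE 0.32, adjusted p = 7.8e-06). Oasl2, an OAS-like protein that helps RIG-I signal, was at 708, 604, 851 and 499.9 in CD4+ and at 167, 106, 239.9 and 103 in CD8+ libraries (2.17, SE 0.25, adjusted p = 1.1e-05). Oas2 was at 186, 195, 235 and 223 in CD4+ and at 98.6, 84.4, 35.9 and 76.9 in CD8+ libraries (1.58, SE 0.27, adjusted p = 0.000367). None of these 4 overlapped between the subsets.

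In KO cells the same comparison called 9 members, all higher in CD4+ cells, where 4.22% of 12189 genes were called, 2.73% higher and 1.48% lower in CD4+ cells. With the animal as a block 20 passed, 19 higher and 1 lower in CD4+ cells, where 18.9% of all genes were called. Without single libraries 3 to 8 passed: 3 without KO CD4 replicate 3, 4 without KO CD4 replicate 4 or KO CD8 replicate 2, and 5 without KO CD4 replicate 2 or KO CD8 replicate 3 or 4. Iigp1 differed by 2.39, SE 0.25, adjusted p = 0.00151, and Oasl2 by 2.01, SE 0.37, adjusted p = 0.0163 (adjusted p = 0.0539 without KO CD4 replicate 3). Isg20, an exonuclease of single-stranded RNA, was at 1381, 1501, 2291 and 1823 in KO CD4+ and 682, 591, 1019.5 and 930.0 in KO CD8+ libraries (1.12, SE 0.21, adjusted p = 0.0197), and lost its call without KO CD4 replicate 3 or 4 (adjusted p up to 0.0622). Ifi44 was at 53.5, 136, 74.5 and 58.2 in KO CD4+ and 17.1, 9.26, 3.36 and 0 in KO CD8+ libraries (adjusted p = 0.038). As 1 library had no read, its fitted difference depends on the pseudocount, 3.83 with 1 and 2.40 with 10. That call was lost without any KO CD4 library or KO CD8 replicate 2 or 3 (adjusted p up to 0.108). The WT and KO comparisons of subsets share no library, and the difference between them is the interaction given above.

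The DP cells, which carry both co-receptors, were compared with the single-positive cells of the same KO animals. Against KO CD8+ cells 0 of 40 members tested passed with limma (2 at an unadjusted p under 0.05, as were 237 of all genes), where 0.00823% of 12153 genes were called. With the animal as a block 14 members had an unadjusted p under 0.05 in limma, as had 1447 of all genes. Of the 40 members 30 were lower and 10 higher in DP cells, with a median log2 difference of -0.13, against -0.01 for all genes. With edgeR and DESeq2, with the animal as a block or without KO DP replicate 3, 0 members passed, where 1, 3, 1 and 1 genes were called over the whole table. Against KO CD4+ cells 6 members were lower in DP cells and 0 higher, where 1.95% of 12175 genes were called, 1.26% lower and 0.682% higher. With the animal as a block 16 members passed, all lower, where 7.06% of all genes were called. Without single libraries 2 to 8 passed: 2 without KO CD4 replicate 2 or 3 or KO DP replicate 2, 3 without KO DP replicate 4, and 7 without KO DP replicate 3. Iigp1 was at 193, 174, 331 and 198 in DP cells (-2.95, SE 0.29, adjusted p = 0.00119), and Oasl2 was at 60.4, 74.5, 58.3 and 50.8 (-2.81, SE 0.37, adjusted p = 0.00596). Ifit1 was at 1032, 1665, 1077 and 742 in KO CD4+ and 544, 372, 374 and 231 in KO DP libraries (-1.57, SE 0.31, adjusted p = 0.0325), and lost its call without KO CD4 replicate 1, 2 or 3 or KO DP replicate 2 or 4 (adjusted p up to 0.105). Ifi44 had no read in 3 of 4 DP libraries and was at 9.59 in the other (adjusted p = 0.0255), with a fitted difference of -5.40 at a pseudocount of 1 and -2.85 at 10. It lost its call without any KO CD4 library or KO DP replicate 2 (adjusted p up to 0.103). Ifih1 and Igtp were the others called. The 2 DP comparisons share the DP libraries.

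**Figure D5:**
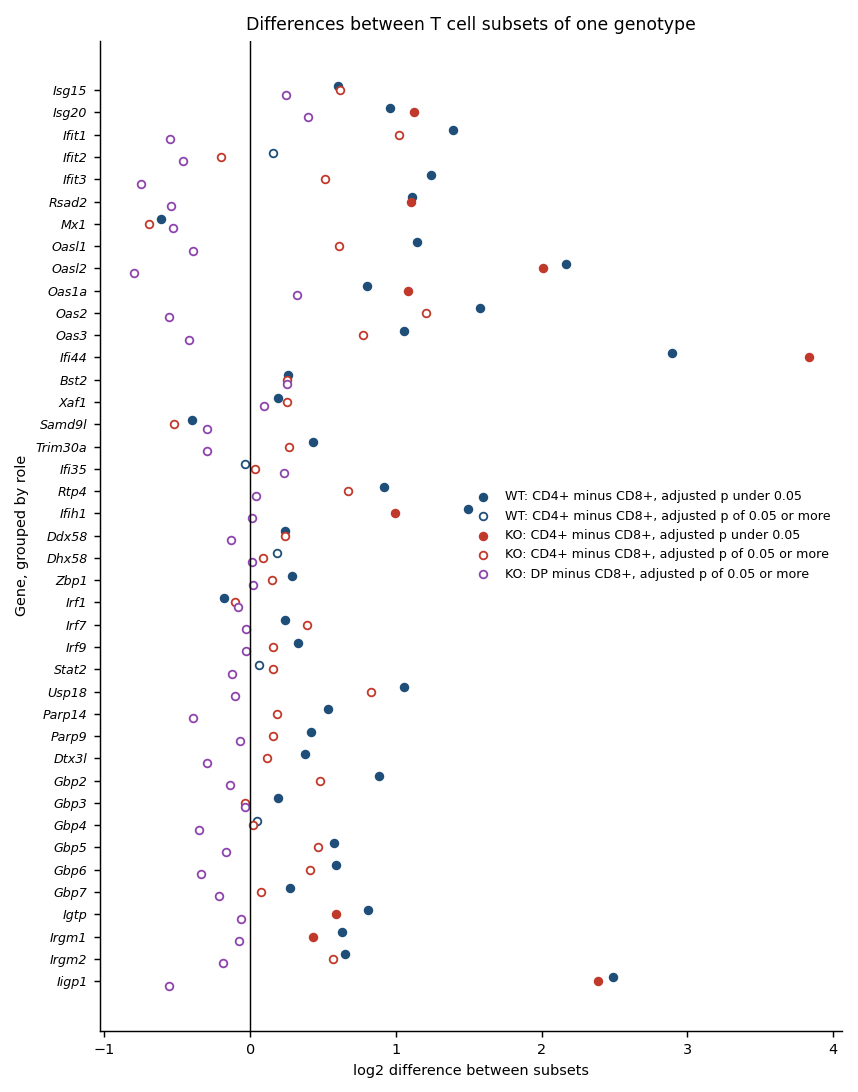
Log2 differences of each gene between subsets of 1 genotype, with WT CD4+ minus CD8+ cells in blue, KO CD4+ minus CD8+ cells in red and KO DP minus KO CD8+ cells in purple, and filled points for an adjusted p under 0.05. Blue points lie right of 0 for 37 of 41 genes, red points for 36 of 41, and no purple point is filled.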

How the data were processed

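Splenic donor T cells were profiled in 20 poly(A)-selected, strand-specific RNA-Seq libraries. Per the labels, the authors aligned reads to mm10 with STAR 2.7.2b and normalised counts with DESeq2. The deposited values are a signal, whole read counts divided by 1 factor per library: undoing the division gave whole reads for 100% of values (tolerance 1e-06), on which edgeR called 2265 genes in CD4+ and 3055 in CD8+ cells between genotypes. Precision was set by 4 libraries per group.

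Groups, compared 2 at a time, were tested with limma 3.58.1 (R 4.3.3, eBayes with trend) on log2(value + 1), for genes with a mean of at least 10, with Benjamini-Hochberg adjustment over all genes tested, 2-sided. The interaction used 16 libraries. The p-values measure the spread between these samples. Within a genotype, equal animal numbers deviated together (r 0.271 to 0.538 in KO, 0.120 to 0.196 in WT libraries, against -0.395 to 0.116 for different numbers in KO), and the numbers were taken to pair libraries of 1 animal. Blocked values are given where they moved a count by over 1.5 times. Alternatives were a pseudocount of 10, no minimum or 50, quantile normalization, a common 75th percentile, no trend, edgeR 4.0.16 and DESeq2 1.42.0 on whole reads, 1 fit of 20 libraries, the block, and each library left out. The calculations were tested on simulated data.

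The members, roles and pathway lists were chosen with earlier results of these data known. The text names every member, with values in each library for those past the threshold in KO versus WT, at most 5 called genes per pathway list, 9 genes of ligands, receptors, kinases and feedback, and the 4 largest called differences between subsets. Ifit3, Oasl1, Rtp4, Ifi44, Gbp7, Igtp and Irgm1 are shown with values although not called in those comparisons, a choice made after their values were seen. Gene positions and promoters were from RefSeq GRCm38.p6, which matched 41 of 41 members. Results on 1 gene of the pathway are not reported here.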

Additional observations from a re-analysis of the deposited data

Results flagged for a closer look

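Among 205 sets of 4 values (41 genes in 5 groups), 15 held a library whose gap to the nearest other was a large share of the range (Dixon's criterion), and chance alone flags about 5% of such sets. In WT cells, replicate 5 was high for Rsad2 in both subsets, at 1862 against 682 to 873 in CD4+ and at 1186 against 302 to 372 in CD8+ libraries. WT replicate 2 was high for Irgm2 in both subsets, at 4682 against 3705 to 3775 in CD4+ and 3284 against 2221 to 2372 in CD8+ libraries. It was also high for Gbp2 in CD8+ cells (5954 against 4819 to 4899.7), for Irf1 in CD8+ cells (17204 against 14786 to 15186) and for Oasl1 in CD4+ cells (216 against 117 to 132). Oasl1 was at 122 against 48.9 to 52.8 in WT CD8+ replicate 3, and Irf1 at 14552 against 13337 to 13444 in WT CD4+ replicate 6.

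In KO cells, CD4+ replicate 2 was high for Mx1 (792 against 371 to 423) and for Oasl1 (291 against 181 to 186), and CD4+ replicate 1 was low for Irgm2 (2748 against 4152 to 4424). Among DP libraries, replicate 3, which had the fewest genes detected, was high for Isg15 (2403 against 555 to 740.2) and Iigp1 (331 against 174 to 198), and replicate 4 was at 9.59 for Ifi44, where the others had no read.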

How the results depend on the processing

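The limits are 4 libraries per group, KO groups more variable than WT groups, and normalised values from which low genes such as Ifi44 and Gm4841 take folds that move with the pseudocount. KO and WT animals share only the numbers 2 and 3 in the labels, and nothing says that a number joins a KO with a WT animal. Libraries with equal numbers correlated at 0.0696 to 0.0846 in CD4+ and -0.0024 to 0.0990 in CD8+ cells. In the replicate block only the libraries numbered 2 and 3 compare KO with WT cells. A loss of calls in that fit therefore cannot decide whether the calls depend on pairing. With this block the counts of KO versus WT members went from 11 to 0 (CD4+) and from 10 to 0 (CD8+). The share of all genes called fell as well, from 18.4% to 0.21% (CD4+) and from 25.2% to 0.719% (CD8+). Within KO animals the block raised the count from 6 to 16 (DP versus CD4+) and from 9 to 20 (CD4+ versus CD8+), and it moved no other count of members by over 1.5 times.

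Without the trend in the variance the counts were 5 (KO versus WT CD4+), 3 (DP versus CD4+) and 3 (KO CD4+ versus CD8+). The share of all genes called under that setting was 11.3%, 1.02% and 2.45% in the same order. DESeq2 on whole reads gave 15 for DP versus CD4+, where 5.98% of all genes were called. The fit of all 20 libraries, which pools the spread of all groups, gave 19 there (12% of all genes called) and 19 for WT CD4+ versus CD8+ (12.8%). With single libraries left out, the counts ranged from 5 to 14 (KO versus WT CD4+), 8 to 15 (KO versus WT CD8+), 2 to 8 (DP versus CD4+), 34 to 36 (WT subsets) and 3 to 8 (KO subsets). The share of all genes called ranged from 5.08% to 23.8%, 13.2% to 33%, 0.689% to 2.29%, 39.7% to 44.9% and 1.91% to 3.99% in the same order. For DP versus CD8+ and for the interaction the counts of members were 0. The median log2 fold change of type I-led genes ran from -0.23 to -0.09 (CD4+) and from -0.17 to 0.04 (CD8+, above 0 without KO CD8 replicate 3 alone), and that of the GTPases from -0.40 to -0.20 (CD4+) and from -0.10 to -0.03 (CD8+). Under quantile normalization the GTPases had a median of -0.13 in CD8+ cells, and under the 75th percentile -0.18.

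The sign turned for a few genes that had not passed the threshold, and the cause was not tested. In CD4+ cells a common 75th percentile gave -0.069 for Ifnar1 and -0.094 for Ifnar2, and the block gave -0.14 for Ifnar2. Ifngr2 was at 0.25 with quantile normalization, 0.043 with edgeR and 0.047 with DESeq2. Left-out libraries gave -0.13 to 0.15 for Ifnar2, -0.57 to 0.13 for Ifngr2 and -0.25 to 0.041 for Socs1. In CD8+ cells quantile normalization gave 0.14 for Ifngr2 and 0.046 for Socs1, and Socs1 was at 0.026 with edgeR, 0.024 with DESeq2, 0.019 with the block and -0.089 to 0.11 with libraries left out.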
